A study of Homo sapiens with 8 samples.

Results

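The small nucleolar RNAs and small Cajal body RNAs were taken as every row whose gene name begins with SNORA, SNORD or SCARNA: 241 of the 17849 genes listed, of which 99 were SNORA, 125 SNORD and 17 SCARNA rows. Of these, 223 had counts in all 8 libraries. The remaining 18, with mean counts of 5.33 to 8.67 where they were listed, were left out, and 5 more were removed by the filter on low counts (SNORA38B, SNORD51, SNORD116-13, SNORA16 and SNORD112, mean counts 6.25 to 9.88). The 218 members tested were 91 SNORA, 110 SNORD and 17 SCARNA rows, and they are followed by gene identifier because 18 names are held by several identifiers.

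The cells were SupB15, an established human line of precursor B acute lymphoblastic leukaemia with the Philadelphia chromosome. The solvent control was DMSO for 46 h. The compound 1035, named as an HDAC inhibitor in the study's title, was given alone at 2 µM for 46 h. Doxorubicin, an anthracycline that poisons topoisomerase II, was given alone at 0.1 µM for 10 h. The last group, called the combination here, had 36 h of 1035 at 2 µM and then 10 h with doxorubicin at 0.1 µM. Each treatment had 2 libraries, described by the submitters as independent. Doxorubicin alone lasted 10 h and its DMSO control 46 h, so the drug and the length of treatment cannot be told apart. No source used here gives whether 1035 stayed on the cells during the last 10 h of the combination. The listed time with 1035 was 46 h alone and 36 h in the combination. When the combination is compared with 1035 or with doxorubicin alone, drug and length of exposure likewise cannot be told apart. The same holds for the test of 1035 with and without doxorubicin. Markers of the labelled cell type were present. EBF1 stood at 311 to 389 CPM (reads per 1e6 counted reads) and DNTT at 499 to 977 over the 8 libraries, while the myeloid genes MPO and LYZ reached 15.8 and 4.30, and CD14, CD3D, CD3E and HBB had no row with counts in all libraries.

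Most small nucleolar RNAs guide the chemical modification of ribosomal RNA. H/ACA RNAs (SNORA) pair with a target uridine and work with the proteins DKC1, NHP2, NOP10 and GAR1, of which DKC1 makes pseudouridine. C/D RNAs (SNORD) guide methylation of the ribose by FBL, together with NOP56, NOP58 and NHP2L1. Small Cajal body RNAs (SCARNA) carry one or both kinds of motif, are held in Cajal bodies and guide the same modifications on spliceosomal RNAs. In human cells most members are cut out of introns of other genes, the host genes, after splicing. A few, such as U3 (SNORD3A) and U13 (SNORD13), have genes of their own and serve in cleaving or acetylating ribosomal RNA. The sequencing was of total RNA depleted of ribosomal RNA and read over 50 bases, so reads of a released small RNA and of the unspliced host intron around it cannot be told apart in these counts.

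The sequences below belong to members on which the results turn, as RNA written in DNA letters 5′ to 3′, from GENCODE v29 on GRCh38. In the C/D RNAs the capitals mark the C box TGATGA within the first 50 bases and the D box CTGA nearest the 3′ end; both were searched on the RNA strand only. SNORD12C (chr20:49278940-49279028, plus strand), SNORD12B (chr20:49280319-49280409, plus strand) and SNORD12 (chr20:49280683-49280772, plus strand) are shown because all 3 lie in ZFAS1, a noncoding host gene, and fell together:
SNORD12C: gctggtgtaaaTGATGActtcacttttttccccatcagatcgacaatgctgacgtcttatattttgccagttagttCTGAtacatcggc
SNORD12B: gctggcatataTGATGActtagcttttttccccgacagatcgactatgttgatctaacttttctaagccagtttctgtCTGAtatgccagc
SNORD12: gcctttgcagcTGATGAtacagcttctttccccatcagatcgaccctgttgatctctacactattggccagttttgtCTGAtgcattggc
SNORD83B (chr22:39313819-39313911, minus strand) and SNORD83A (chr22:39315213-39315307, minus strand) lie in RPL3 and fell with 1035 alone:
SNORD83B: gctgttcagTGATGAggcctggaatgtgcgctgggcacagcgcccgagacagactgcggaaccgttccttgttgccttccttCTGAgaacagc
SNORD83A: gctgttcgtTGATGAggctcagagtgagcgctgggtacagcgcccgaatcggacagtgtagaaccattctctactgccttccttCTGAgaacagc
SNORD86 (chr20:2656097-2656182, plus strand) and SNORD57 (chr20:2656939-2657010, plus strand) lie in NOP56, a gene for a C/D core protein, and SNORD86 holds no TGATGA in its first 50 bases:
SNORD86: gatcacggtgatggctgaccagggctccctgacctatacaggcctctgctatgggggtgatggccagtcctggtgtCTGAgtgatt
SNORD57: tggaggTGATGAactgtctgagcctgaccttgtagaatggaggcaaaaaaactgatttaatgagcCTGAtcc
SNORD17 (chr20:17962710-17962946, minus strand), in SNX5, is shown as a C/D RNA that rose in both comparisons of 1035:
SNORD17: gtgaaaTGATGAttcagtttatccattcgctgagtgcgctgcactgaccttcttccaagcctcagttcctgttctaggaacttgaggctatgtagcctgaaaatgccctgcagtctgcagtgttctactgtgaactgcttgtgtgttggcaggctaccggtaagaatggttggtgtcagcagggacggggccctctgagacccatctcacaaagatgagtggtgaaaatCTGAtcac
For the H/ACA RNAs SNORA26 (chr4:52713249-52713370, plus strand, in DANCR) and SNORA70 (chrX:154400281-154400415, plus strand, in RPL10), which fell in both, the capitals mark the ACA box that ends 3 bases before the 3′ end:
SNORA26: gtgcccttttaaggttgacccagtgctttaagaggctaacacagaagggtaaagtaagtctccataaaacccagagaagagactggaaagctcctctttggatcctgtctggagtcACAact
SNORA70: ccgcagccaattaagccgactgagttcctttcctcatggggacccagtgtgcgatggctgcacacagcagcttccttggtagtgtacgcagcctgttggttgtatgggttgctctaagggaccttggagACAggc

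The motifs followed the classes. Of the members that GENCODE v29 types as snoRNA or scaRNA, TGATGA stood in the first 50 bases of 80 of 119 SNORD (67.2%), 0 of 95 SNORA and 6 of 13 SCARNA sequences, against 1.44% of all GENCODE transcripts. CTGA stood in the last 20 bases of 95.0% of SNORD, 10.5% of SNORA and 9.38% of all transcripts. An ACA 3 bases from the 3′ end was present in 68 of 95 SNORA (71.6%) and 3 of 119 SNORD sequences, against 2.37% of all transcripts. The 3 RNAs in ZFAS1 were 71.0% to 74.2% identical to each other when aligned, SNORD83A and SNORD83B 78.4%, and none of these shared a run of 50 bases with another member. Such a shared run, which reads of that length could not separate, was found for 11 members, among them SNORD3A with SNORD3B-1 and 4 SNORD116 rows.

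Members took 0.248% to 0.281% of the 11760542 to 18144670 counted reads of a library, and most were thinly read: the median mean count was 30.8 for SNORA, 26.1 for SNORD and 204.5 for SCARNA rows, against 305.8 over all 16320 genes tested. Per length, on the scale of CPM per kilobase, SNORA73B (a U17 RNA, needed for cleavage of the ribosomal RNA precursor) had the highest level of any member at 1349, ahead of SCARNA10 at 931, SNORD17 at 726, SCARNA2 at 455 and SNORD3A at 400. Most members were far below these, with medians of 16.2 for SNORA, 21.6 for SNORD and 41.3 for SCARNA rows.

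Not every row held what its name says: GENCODE v29 gives 7 of the tested identifiers another type than snoRNA or scaRNA. It lists SCARNA15 and 1 SNORA67 row as processed transcripts, SNORD116-20, SCARNA2 and 1 SNORA76 row as lincRNA, SCARNA9 as antisense and SNORD64 as sense intronic. The row named SNORA67 with the most reads of all members, 46.2% of all SNORA counts, had a length of 4560 nt, and its identifier is in GENCODE v29 a processed transcript, AC016876.2 (chr17:7572826-7582024, plus strand), that overlaps EIF4A1, SNORA48, SNORD10, SNORA67 itself and CD68. It stood at 584 and 587 CPM with DMSO, 420 and 453 with 1035, 555 and 543 with doxorubicin and 441 and 436 with the combination. EIF4A1, a translation initiation factor, stood beside it at 648 and 651, 469 and 502, 609 and 590, and 493 and 489 CPM, so the row moved with the messenger RNA it overlaps. In all, 6 tested rows were longer than 500 nt (SNORA67, SCARNA15 at 4331, SNORD116-20 at 1238, SNORD3A at 700, SNORD3B-1 at 584 and SNORD109A at 512), a limit chosen after seeing the data, and class values are given with and without them.

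Summed over the class, SNORA rows stood at 1227 and 1263 CPM with DMSO, 978 and 971 with 1035, 1201 and 1076 with doxorubicin and 968 and 1016 with the combination. The 4 libraries with 1035 were thus below the other 4. Without the row of 4560 nt the sums were 643 and 676, 558 and 518, 646 and 532, and 527 and 580 CPM, and the second doxorubicin library then lay within the range of those with 1035. SNORD rows summed to 750 and 796, 792 and 791, 679 and 664, and 744 and 776 CPM, of which SNORD3A alone made up 37.1% of the counts. Without the 4 SNORD rows longer than 500 nt the sums were 450 and 463 CPM with DMSO, 424 and 430 with 1035, 429 and 391 with doxorubicin and 405 and 436 with the combination. Both 1035 libraries were then below both DMSO libraries, while the doxorubicin and combination libraries overlapped each other. SCARNA sums overlapped between all 4 treatments, from 749 to 925 CPM, and both ends of that range were doxorubicin libraries.

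**Figure D1:**
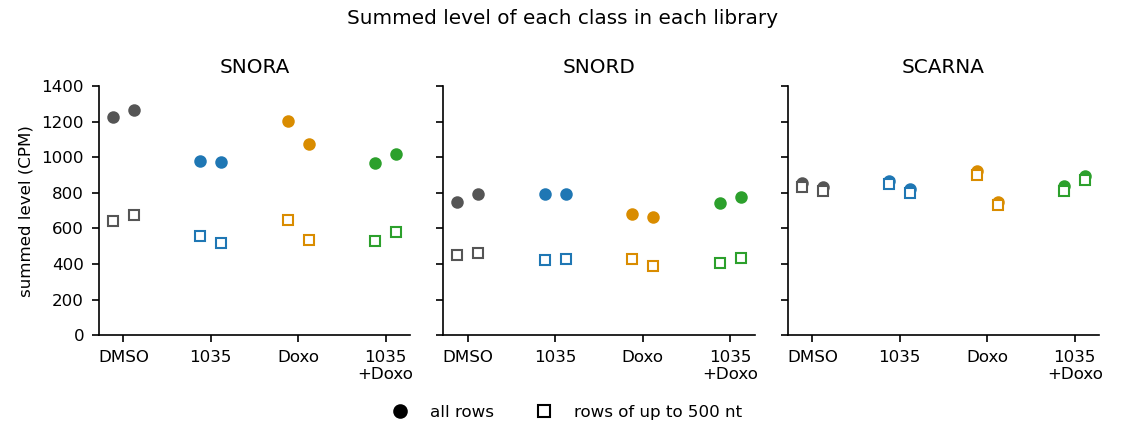
Summed level in CPM (y axis) of the SNORA, SNORD and SCARNA rows in each library, by treatment (x axis); each point is 1 library, filled circles all rows and open squares rows of up to 500 nt. SNORA sums of all rows are lowest in the 4 libraries with 1035 (968 to 1016), a gap that closes for the shorter rows, and SCARNA sums overlap throughout.

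The 2 doxorubicin libraries stood apart from each other. The second was lower than the first for 84 of 110 SNORD and 62 of 91 SNORA rows, with median log2 differences of -0.25 and -0.15, whereas the 2 DMSO libraries differed by -0.02 and 0.00. The second 1035 library was also lower than the first, with medians of -0.05 for SNORD and -0.13 for SNORA rows (59 of 91 lower), the latter close to the doxorubicin pair, and in the combination the medians were 0.09 and 0.08. The second doxorubicin library also had 0.258% of its reads on mitochondrially encoded genes against 0.163% in the first, as had the second 1035 library; the part of this in the members' values was not tested. Results that use doxorubicin are therefore given with each of these libraries left out.

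In 1035 against DMSO, the log2 fold change was negative for 82.4% of SNORA, 71.8% of SNORD and 35.3% of SCARNA rows, against 49.0% of all genes. Of the 218 members, 36 fell and 4 rose at an adjusted p under 0.05 (edgeR's quasi-likelihood test, Benjamini-Hochberg over all genes), where 24.8% of all genes tested fell and 24.2% rose. By class, 15 of 91 SNORA, 20 of 110 SNORD and 1 of 17 SCARNA rows fell, and 3 SNORD rows and 1 SCARNA row rose. The count of SNORA rows that rose was 0 by edgeR and 0 by DESeq2, with 1 upward at an unadjusted p under 0.05. The median log2 fold change was -0.30 for SNORA (quartiles -0.51 and -0.10), -0.27 for SNORD (-0.59 and 0.08) and 0.12 for SCARNA rows (-0.05 and 0.24), against 0.01 over all genes (-0.27 and 0.37). Rows of up to 500 nt gave -0.29, -0.31 and 0.14.

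In each range of depth, members passed less often than all genes. Under a mean count of 50, 8.45% of members passed in either direction, against 25.7% of all genes. From 50 to 200 it was 38.3% against 50.2%, and at 200 or more 31.25% against 59.2%. Among members with a mean count of 50 to 200, 23 of 60 fell and 0 rose by edgeR (also 0 upward at an unadjusted p under 0.05), while of all genes in that range 17.8% fell and 32.4% rose. Under a mean count of 50, 11 of 142 members fell and 1 rose, against 5.41% and 20.2% of all genes at that depth. The 16 members with a mean count of 200 or more were balanced otherwise: 2 fell and 3 rose, with a median log2 fold change of -0.01, against 35.7% and 23.6% of all genes at that depth and a median of -0.06. The 2 that fell were the rows named SNORA67 and SCARNA15, of 4560 and 4331 nt. The count of members lower depended on test and library: DESeq2's Wald test called 12 lower and 2 higher, and without the first DMSO library 18 were lower and 1 higher.

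**Figure D2:**
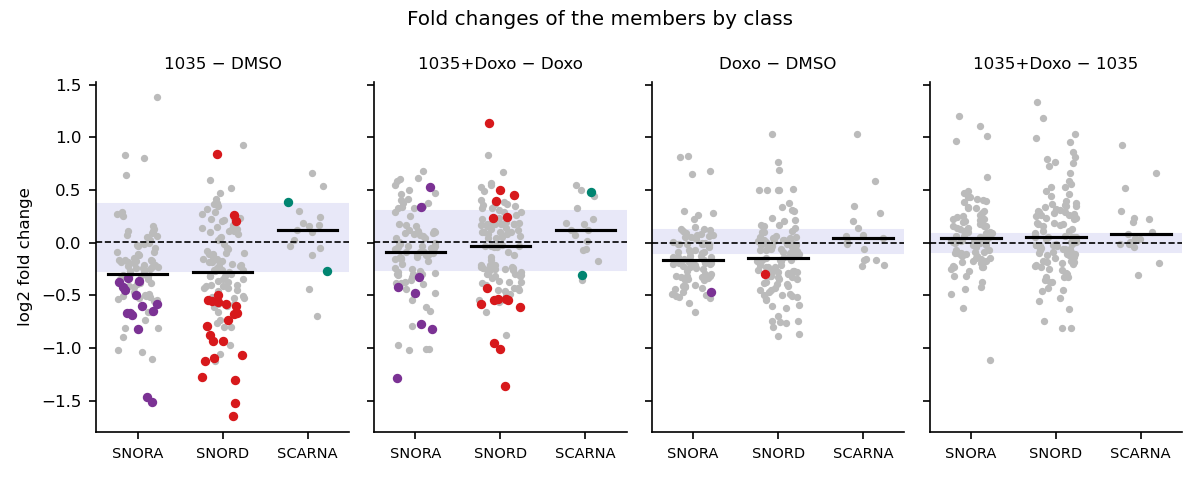
Log2 fold change (y axis) of each of the 218 members by class (x axis) in 4 comparisons; coloured points passed the test, grey points did not, black bars are class medians, and the dashed line and band are the median and quartiles of all genes. SNORA and SNORD medians lie at -0.30 and -0.27 for 1035 against DMSO and at -0.09 and -0.03 for the combination against doxorubicin.

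The H/ACA member with the smallest p was SNORA26, a guide that lies in the noncoding host gene DANCR. It stood at 7.65 and 7.67 CPM with DMSO, 2.88 and 2.44 with 1035, 7.72 and 6.14 with doxorubicin and 4.41 and 3.80 with the combination. All 4 libraries with 1035 were below the other 4, and the log2 fold change against DMSO was -1.52 ± 0.20 (SE, n = 2 a group; adjusted p = 3.54e-08). DANCR itself fell by 0.90 on the log2 scale, from 90.6 and 90.7 CPM to 45.3 and 52.1.

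SNORA25 and SNORA18, H/ACA guides in introns of TAF1D, fell by 0.65 ± 0.15 and 0.60 ± 0.16 (adjusted p = 0.000408 and 0.00201). SNORA25 stood at 12.8 and 10.6 CPM with DMSO and 8.13 and 6.75 with 1035. All 8 tested members in TAF1D had a negative log2 fold change, from -0.65 to -0.16, beside -0.37 for the host, but only these 2 passed. SNORA80B, in the ornithine decarboxylase gene ODC1, fell by 1.47 ± 0.40 on counts of 41 and 31 with DMSO and 14 and 8 with 1035, and ODC1 fell by 1.23.

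SNORA76 fell by 0.69 ± 0.16 (adjusted p = 0.000563), from 9.82 and 10.8 CPM to 6.69 and 6.10, a row whose identifier is in GENCODE v29 the noncoding gene SNHG25. SNORA73B, the member with the highest level per length, stood at 293 and 330 CPM with DMSO, 259 and 248 with 1035, 320 and 243 with doxorubicin and 235 and 272 with the combination. Its log2 fold change against DMSO, -0.30 ± 0.16, did not pass (adjusted p = 0.202), and the doxorubicin libraries spanned nearly the whole range.

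Among C/D RNAs, 2 of the 3 tested members in RPL3 fell with 1035 alone, and the third had a log2 fold change of -0.05. SNORD83A stood at 3.0 and 2.51 CPM with DMSO, 0.936 and 0.975 with 1035, 1.79 and 1.45 with doxorubicin and 1.90 and 1.82 with the combination. SNORD83B stood at 2.87 and 2.84, 1.15 and 1.87, 1.68 and 1.70, and 1.52 and 2.31 CPM. Their log2 fold changes against DMSO were -1.52 ± 0.33 and -0.93 ± 0.30 (adjusted p = 0.000146 and 0.00939; SNORD83B did not pass by DESeq2 or without the first 1035 library), while RPL3, a ribosomal protein gene, had -0.03 ± 0.06 (adjusted p = 0.668). In the combination against doxorubicin the same RNAs had 0.18 ± 0.31 and 0.17 ± 0.32, and neither passed.

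SNORD78, whose identifier had no match in GENCODE v29, stood at 5.10 and 4.23 CPM with DMSO and 1.94 and 2.36 with 1035, a log2 fold change of -1.12 ± 0.25 (adjusted p = 0.000269). SNORD87, in SNHG6, fell by 0.93 ± 0.22 (adjusted p = 0.000496), from 5.48 and 5.62 CPM to 2.88 and 2.93. SNORD88C, in C19orf48, had the lowest fold change of all, -1.65 ± 0.41, on counts of 26 and 30 with DMSO and 7 and 8 with 1035; it was named after its value was seen. None of the 3 passed in the combination against doxorubicin, with log2 fold changes of 0.11, -0.26 and -0.04.

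A further 12 members that fell with 1035 against DMSO had log2 fold changes of -1.30 to -0.33. They were the H/ACA RNAs SNORA10 and SNORA64 in RPS2, SNORA27 in RPL21, SNORA57 in METTL12 and SNORA74A, and the C/D RNAs SNORD20 in NCL, SNORD45A and SNORD45B in RABGGTB, SNORD46, SNORD52 in C6orf48, SNORD70 in NOP58 and SNORD97 in EIF4G2. None of these 12 passed by DESeq2. SNORD97 stood at 8.29 and 8.27 CPM with DMSO and 5.76 and 5.44 with 1035, and NCL and NOP58 encode nucleolin and a C/D core protein. Members with high levels did not all fall: SNORD58B in RPL17 and SNORD32A in RPL13A, among the 5 SNORD rows highest per length, had -0.08 ± 0.15 and -0.10 ± 0.17 and did not pass.

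The effect of 1035 given before doxorubicin was read from the combination against doxorubicin, which shares no library with 1035 against DMSO. Here 17 members fell and 9 rose, where 22.0% and 21.8% of all genes did. By class these were 6 SNORA, 10 SNORD and 1 SCARNA lower and 2, 6 and 1 higher, with medians of -0.09, -0.03 and 0.12. The split turned on the doxorubicin library used: without the first, 7 fell and 15 rose, with medians of 0.05, 0.15 and 0.24, and without the second, 23 fell and 4 rose, with medians of -0.19, -0.20 and 0.06. Of the 26 calls, 13 remained without the first and 16 without the second. SNORD3A, the row named SNORA67, SNORD57 and SCARNA21 kept their calls in this comparison in every alternative that tested them.

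The 2 comparisons had 12 members called in the same direction and none in opposite directions. These were 30.0% of the 40 members called for 1035 against DMSO and 46.2% of the 26 called for the combination against doxorubicin, while among all genes the shared calls were 77.0% and 86.1% of those called. As a share of what was tested, 5.50% of members and 37.7% of all genes were called the same way in both. Lower in both were SNORA4, SNORA26, the SNORA70 row in RPL10, the row named SNORA67, SNORD12, SNORD12B, SNORD12C, SNORD55 and SNORD86, and higher in both were SNORD3A, SNORD17 and SCARNA9. The sign was the same in both for 139 of 218 members (63.8%), against 83.9% of all genes. At an adjusted p under 0.01 in both, 5 remained, and DESeq2's Wald test called 4 in both: SNORA26, the SNORA67 row, SNORD17 and SNORD3A. Without the first DMSO or the first doxorubicin library 4 were called in both, and without either combination library 6.

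**Figure D3:**
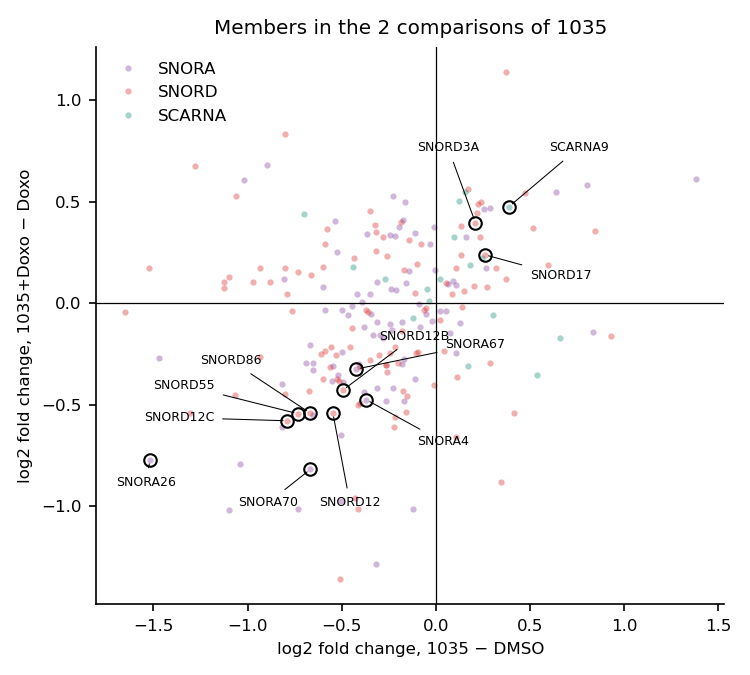
Log2 fold change of each tested member for 1035 against DMSO (x axis) and for the combination against doxorubicin (y axis), coloured by class; circles with names mark the 12 called in both. The 9 that fell lie in the lower left, with SNORA26 at -1.52 and -0.77, and SNORD3A, SNORD17 and SCARNA9 lie in the upper right.

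The 3 C/D RNAs of ZFAS1 were lower in every library with 1035 than in any without it. SNORD12 stood at 6.50 and 5.75 CPM with DMSO, 4.46 and 3.90 with 1035, 6.55 and 4.60 with doxorubicin and 4.03 and 3.80 with the combination. SNORD12B stood at 9.12 and 9.06, 6.19 and 6.75, 8.28 and 8.81, and 6.84 and 5.78 CPM, and SNORD12C at 6.06 and 4.76, 3.02 and 3.25, 4.98 and 3.88, and 2.89 and 3.14 CPM. Against DMSO they fell by 0.55 ± 0.20, 0.49 ± 0.15 and 0.79 ± 0.22 on the log2 scale (adjusted p = 0.0188, 0.0069 and 0.00221), and in the combination against doxorubicin by 0.54 ± 0.20, 0.43 ± 0.16 and 0.58 ± 0.23 (adjusted p = 0.0282, 0.0249 and 0.0347). In the latter comparison none of the 3 passed by DESeq2, without the first doxorubicin or without the second combination library. SNORD12 and SNORD12C also did not pass there without the first combination library, nor SNORD12B without the second doxorubicin library. Against DMSO, SNORD12 and SNORD12C did not pass without the first DMSO library, SNORD12 without the second 1035 and SNORD12B without the first 1035 library, and by DESeq2 of the 3 only SNORD12C passed. ZFAS1 had 106 and 96.3 CPM with DMSO and 98.5 and 87.2 with 1035, a log2 fold change of -0.12 ± 0.07 that did not pass (adjusted p = 0.143). Whether the RNAs changed by more than their host was not tested. These 3 share 1 host and are not independent of each other.

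SNORD86 in NOP56 fell with its host. It stood at 9.37 and 9.06 CPM with DMSO, 6.26 and 5.28 with 1035, 8.34 and 7.19 with doxorubicin and 5.02 and 5.78 with the combination, with log2 fold changes of -0.67 ± 0.16 and -0.54 ± 0.17 (adjusted p = 0.000578 and 0.00823), of which the second did not pass by DESeq2 or without the first doxorubicin or the first combination library. NOP56 fell by 0.54 and 0.44. Its neighbour SNORD57 passed in the combination against doxorubicin, at -1.36 ± 0.32 (adjusted p = 0.000564), from 2.63 and 2.91 to 1.06 and 1.07 CPM, and had -0.51 ± 0.29 for 1035 against DMSO, which did not pass. SNORD55 stood at 5.93 and 5.62, 3.38 and 3.58, 4.25 and 4.04, and 2.74 and 2.97 CPM, and was lowest with the combination. Its fall in the combination against doxorubicin did not pass by DESeq2 or without any one of the DMSO, doxorubicin or combination libraries.

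Of the other H/ACA RNAs lower in both, SNORA70 in RPL10 stood at 4.33 and 3.90, 2.73 and 2.44, 4.70 and 3.72, and 2.13 and 2.73 CPM. SNORA4 in EIF4A2 stood at 9.12 and 7.94, 6.69 and 6.50, 9.63 and 8.0, and 6.54 and 6.28 CPM. The 4 libraries with 1035 did not overlap the others for either RNA, with log2 fold changes of -0.67 ± 0.24 and -0.37 ± 0.16 against DMSO and -0.82 ± 0.24 and -0.47 ± 0.16 against doxorubicin. Neither passed by DESeq2 in either comparison, and neither passed against doxorubicin without the first doxorubicin or the first combination library. Without the first DMSO or the second 1035 library neither passed against DMSO. SNORA26, in the combination against doxorubicin, did not pass without the first doxorubicin library (adjusted p = 0.0506). Over all members, the 4 libraries with 1035 were below the other 4 for 24 (12 SNORA and 12 SNORD) and above for 6 (1 and 5), where 24.7% and 24.5% of all genes were so separated, and no SCARNA row was.

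**Figure D4:**
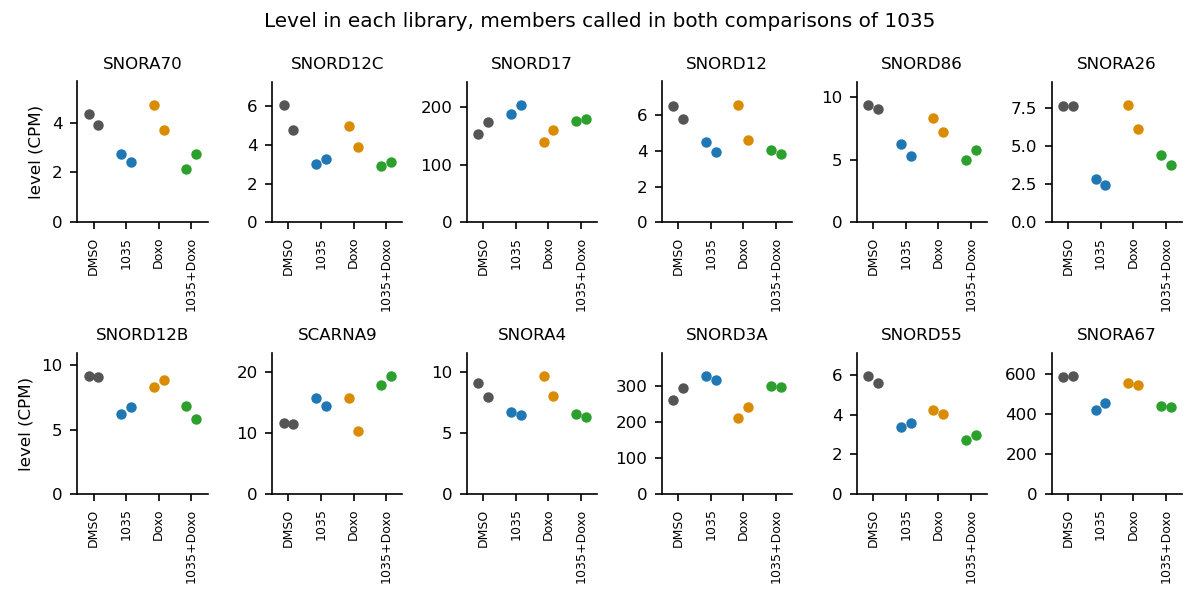
Level in CPM (y axis, from 0) of the 12 members called in both comparisons of 1035, by treatment (x axis); each point is 1 library. SNORA26 drops from 7.65 and 7.67 with DMSO to 2.88 and 2.44 with 1035, and SNORD3A is lowest in the doxorubicin libraries (210 and 241).

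U3 is the C/D RNA needed for the first cleavages of the ribosomal RNA precursor. Its row SNORD3A was one of the few members that rose with 1035. SNORD3A stood at 260 and 294 CPM with DMSO, 325 and 316 with 1035, 210 and 241 with doxorubicin and 298 and 295 with the combination. It rose by 0.21 ± 0.06 with 1035 (adjusted p = 0.00604), fell by 0.30 ± 0.06 with doxorubicin (adjusted p = 0.00997), and was higher in the combination than with doxorubicin by 0.40 ± 0.06 (adjusted p = 3.4e-06). Without the first DMSO library the rise with 1035 did not pass, nor without the second did the fall with doxorubicin. SNORD3A has its own promoter, and its row has a length of 700 nt, more than the RNA itself. The other tested U3 row, SNORD3B-1, stood at 0.496 to 1.21 CPM. It had -0.15 ± 0.48 and -0.46 ± 0.51 in the 2 comparisons of 1035 and did not pass.

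SNORD17, a C/D RNA of 237 bases that guides methylation of ribosomal RNA, stood at 153 and 174 CPM with DMSO, 188 and 204 with 1035, 140 and 161 with doxorubicin and 176 and 179 with the combination. It rose by 0.26 ± 0.07 and 0.24 ± 0.07 (adjusted p = 0.00174 and 0.00448), and its host SNX5 rose by 0.27 and 0.43. The first rise did not pass without the first DMSO library, nor the second without the first doxorubicin or the second combination library. The fourth member that rose with 1035 was SNORD109A, at 1.21 and 1.32 CPM with DMSO and 2.81 and 1.71 with 1035 (0.84 ± 0.32, adjusted p = 0.0279), on a row of 512 nt, and it did not pass by DESeq2. SNORD13 (U13), which guides acetylation of ribosomal RNA, stood at 2.29 and 2.71, 3.67 and 3.25, 2.07 and 2.10, and 3.19 and 2.89 CPM; its 4 libraries with 1035 were above the other 4. Its log2 fold changes of 0.47 ± 0.24 and 0.55 ± 0.26 did not pass (adjusted p = 0.108 and 0.0876).

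Of the remaining RNAs with known roles in cleaving ribosomal RNA, 1 passed. U8 (SNORD118), needed for the large subunit RNAs, stood at 1.65 to 2.58 CPM in all libraries, with log2 fold changes of 0.13 ± 0.29 and 0.38 ± 0.29 in the 2 comparisons of 1035. Of the 5 U14 copies, SNORD14D in HSPA8 fell by 0.59 ± 0.18 with 1035 (adjusted p = 0.0064, not passed by DESeq2 or without the first DMSO or second 1035 library), from 9.82 and 7.67 to 6.55 and 5.04 CPM, and HSPA8 fell by 0.46. SNORD14A, 14B, 14C and 14E had -0.40, -0.80, -0.59 and -0.37 and did not pass. SNORD94, which guides methylation of the spliceosomal U6 RNA, had -0.17 ± 0.26.

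Of the 17 Cajal body rows, 1 rose and 1 fell with 1035 alone. SCARNA10, the most read of them, stood at 276 to 343 CPM, SCARNA2 at 163 to 216, SCARNA13 at 83.9 to 96.8 and SCARNA12 at 62.4 to 94.6 over the 8 libraries. The lowest value of each of these 4 was that of the second doxorubicin library. In 1035 against DMSO their log2 fold changes were -0.12 ± 0.08, 0.02 ± 0.11, -0.03 ± 0.07 and 0.24 ± 0.16, and none passed. SCARNA5, SCARNA6, SCARNA7, SCARNA17, SCARNA18 and SCARNA22 had -0.05, 0.10, 0.18, 0.30, 0.12 and 0.54. SCARNA1, SCARNA3, SCARNA4 and SCARNA8, at mean counts of 10.2 to 19, had standard errors of 0.37 to 0.58. A change has to be well above its standard error to pass, so changes larger than these values could also go undetected.

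SCARNA9, which can be cut into smaller guides, was the row that rose. It stood at 11.6 and 11.6 CPM with DMSO, 15.8 and 14.5 with 1035, 15.7 and 10.4 with doxorubicin and 18 and 19.3 with the combination. The log2 fold change was 0.39 ± 0.14 for 1035 and 0.69 ± 0.13 for the combination against DMSO (adjusted p = 0.0194 and 6.89e-05), and 0.48 ± 0.13 for the combination against doxorubicin (adjusted p = 0.0034). The rise against DMSO with 1035 alone did not pass by DESeq2 or without either DMSO library or the first 1035 library, and that against doxorubicin did not pass without the second doxorubicin or the second combination library. KIAA1731, the gene that encloses it, had 0.03 and 0.15 in the comparisons of 1035. GENCODE v29 types this identifier as antisense to another gene, and no strand setting is given, so reads of the gene opposite cannot be told apart.

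SCARNA21, in the gene of the chromatin remodeller CHD3, fell in 1 of the comparisons of 1035 and its host in both. It stood at 36.3 and 37.6 CPM with DMSO, 41.0 and 42.2 with 1035, 43.3 and 46.9 with doxorubicin and 36.6 and 36.2 with the combination. The combination was lower than doxorubicin by 0.31 ± 0.08 on the log2 scale (adjusted p = 0.0025), while 1035 against DMSO gave 0.17 ± 0.08 (adjusted p = 0.0908). CHD3 fell by 0.78 and 0.81 in these comparisons, from 531 and 529 CPM with DMSO to 302 and 314 with 1035. The row named SCARNA15, at 4331 nt, fell with 1035 by 0.27 ± 0.10 (adjusted p = 0.0298) and is in GENCODE v29 a processed transcript that also overlaps SNHG21 and FSD2.

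A host gene with counts enclosed 200 of the tested members, in 118 distinct hosts. In 1035 against DMSO, 61 of these hosts fell and 8 rose, where 24.8% of all genes fell and 24.2% rose. Of the 31 hosted members that fell, 22 had a host that fell, 9 a host that did not pass and 0 a host that rose. Member and host had the same sign for 156 of 200, and Pearson's r between their log2 fold changes was 0.48 (Spearman's rho 0.45) across these members, which share hosts, libraries and intron reads, so it is a description. In the combination against doxorubicin the same sign held for 143 of 200, with r = 0.47 (rho 0.46). The 18 members with no such host had a median log2 fold change of 0.05 for 1035 against DMSO, against -0.27 for those with one. Even so, 5 of these 18 fell and 2 rose, beside 31 and 2 of the 200. The 5 were SNORA74A, SNORD78 and the rows named SNORA67, SNORA76 and SCARNA15. Of these, GENCODE v29 types the SNORA67 and SCARNA15 rows as processed transcripts and the SNORA76 row as lincRNA. The 18 include rows without a match in GENCODE v29, such as SNORD78, to which no host was assigned by position. SNORD78 is listed among the RNAs of GAS5, but it was counted here as having no host.

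**Figure D5:**
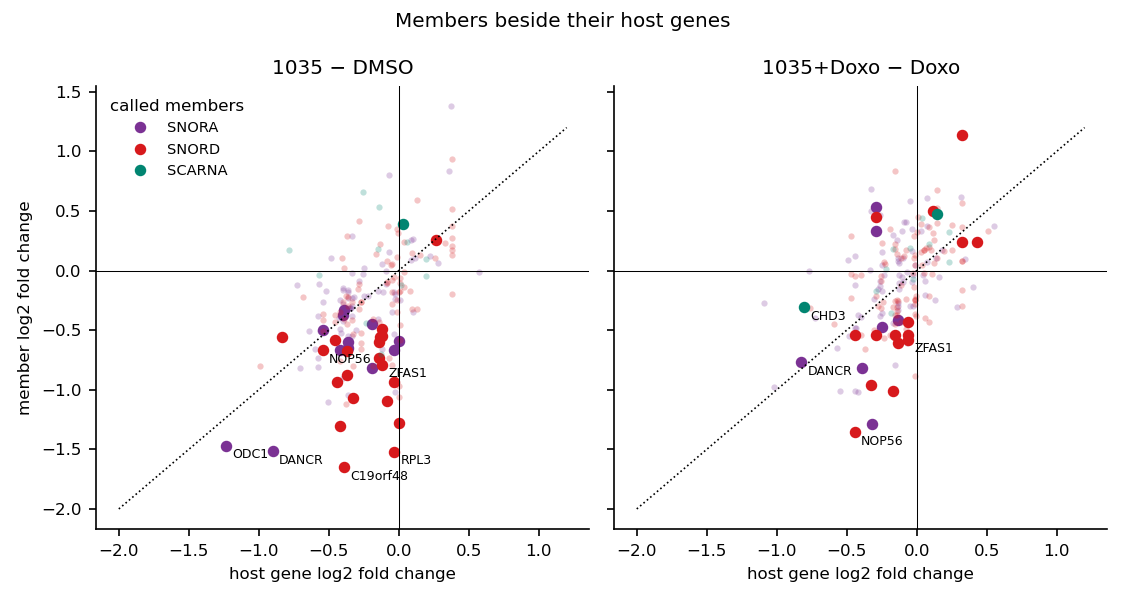
Log2 fold change of each of 200 members (y axis) against that of its host gene (x axis) for 1035 against DMSO (left) and the combination against doxorubicin (right); large points passed the test, the dotted line is equality, and hosts of some called members are named. SNORA26 in DANCR fell with its host (-1.52 beside -0.90), and SNORD83A in RPL3 fell beside a host at -0.03.

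The 9 members that fell beside a host that did not pass were the 3 in ZFAS1 and 6 in ribosomal protein genes. The latter were SNORD16 in RPL4 (-1.28, host 0.00), SNORD36C in RPL7A (-1.10, host -0.08), SNORA3 in RPL27A (-0.67, host -0.04) and SNORA52 in RPLP2 (-0.59, host 0.00), with SNORD83A and SNORD83B. SNORD16, SNORD36C, SNORA3 and SNORA52 were named after their values were seen and did not pass by DESeq2, and none of the 6 passed in the combination against doxorubicin, where SNORD16 had 0.68 and SNORD36C 0.13. SNHG14, the host of the SNORD116 cluster, rose by 0.38 with 1035, and its 8 tested members had a median log2 fold change of 0.24 and did not pass.

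Doxorubicin alone, against DMSO, changed few members. By edgeR 2 fell and 0 rose (3 had an unadjusted p under 0.05 in the upward direction, and DESeq2 called 1 lower and 0 higher), where 0.545% of all genes fell and 0.784% rose. These were SNORD3A, given above, and SNORA48, an H/ACA guide in EIF4A1. SNORA48 stood at 23.2 and 20.6 CPM with DMSO, 19.4 and 17.6 with 1035, 16.7 and 14.7 with doxorubicin and 19.8 and 20.2 with the combination. The fall was 0.47 ± 0.11 (adjusted p = 0.0127), and it did not pass without the second doxorubicin or the first DMSO library. Class medians were -0.16, -0.14 and 0.04. Without the first doxorubicin library 12 members fell and 2 rose, and without the second 1 fell.

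SNORA48 and its neighbour SNORD10 were higher in the combination than with doxorubicin although their host was lower. SNORA48 gave 0.34 ± 0.11 (adjusted p = 0.0114), and SNORD10, at 5.88 and 6.38 CPM with doxorubicin and 8.74 and 7.93 with the combination, gave 0.45 ± 0.16 (adjusted p = 0.0179). EIF4A1 fell by 0.29. Also higher were SNORA23 in IPO7 (0.53), SNORD15B in RPS3 (0.50) and SNORD116-18 (1.14, on mean counts of 15.9). Lower were SNORD99 in SNHG12 (-0.96), SNORD101 in RPS12 (-1.01), and SNORA32 (-0.42) and SNORD5 (-0.61) in TAF1D, where SNORA25 and SNORA18 did not pass. Of these, SNORA48, SNORD10, SNORA23, SNORD15B, SNORD116-18, SNORD101, SNORA32 and SNORD5 did not pass by DESeq2. Without the second doxorubicin library SNORA48, SNORA23, SNORD15B and SNORD116-18 did not pass, and without the first SNORD10, SNORA32 and SNORD5 did not. Leaving out 1 of the combination libraries also ended each of these 7 calls and that of SNORD99.

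Adding doxorubicin after 1035 changed no member by edgeR, likelihood ratio or DESeq2's test, against 0.496% of all genes; 15 had an unadjusted p under 0.05 upward and 3 downward. SNORD3A gave -0.11 ± 0.06. The listed time with 1035 also differed here, 36 h in the combination against 46 h alone. The test of whether 1035 acted differently with and without doxorubicin called no member by any of these tools, against 0.0184% of all genes, with 23 members at an unadjusted p under 0.05 upward and 2 downward. Its class medians were 0.17, 0.17 and 0.09. Without the first doxorubicin library it called 5 higher (SNORD45B, SNORD78, SNORA48, SCARNA15 and SCARNA2) and SCARNA21 lower, and without the second none.

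The combination against DMSO gave 23 members lower and 4 higher, where 24.7% and 24.5% of all genes were. It shares its libraries with the comparisons above. The 9 SNORA and 14 SNORD rows that fell included SNORD55 (-1.02 ± 0.21), SNORA26 (-0.90 ± 0.18), SNORD86 (-0.77 ± 0.16) and SNORD57 (-1.26 ± 0.32). The 4 that rose were SCARNA9, SCARNA7 (0.27 ± 0.11), SCARNA18 (0.65 ± 0.25) and SNORD109A (0.86 ± 0.33), and those other than SCARNA9 did not pass by DESeq2. Without the first combination library 9 fell and 1 rose.

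Of the genes for proteins of these particles, some fell and some rose with 1035, where 24.8% of all genes fell and 24.2% rose. Of 6 H/ACA core and assembly genes, 3 fell and 1 rose against DMSO: DKC1, the pseudouridine synthase, by 0.49 ± 0.06, from 221 and 219 CPM to 152 and 162, NHP2 by 0.37 ± 0.08 and GAR1 by 0.39 ± 0.16, while NOP10 rose by 0.31 ± 0.07. Of 12 C/D genes, 5 fell, among them NOP56, NOP58 (0.33 ± 0.06) and NHP2L1 (0.34 ± 0.06), and 2 rose, NUFIP1 (0.38) and RPAP3 (0.18). FBL, the methyltransferase, had -0.01 ± 0.07 and stood at 79.2 to 83.9 CPM throughout. Of 12 genes of Cajal bodies and of maturation and release, 7 fell and 5 did not pass, among the former COIL, the scaffold of Cajal bodies (0.40 ± 0.08), TOE1, a 3′ end trimming enzyme (0.74 ± 0.09), and DBR1, which opens intron lariats (0.59 ± 0.10). In the combination against doxorubicin DKC1, NHP2, NOP56, NHP2L1, COIL, TOE1 and DBR1 fell again, by 0.49, 0.35, 0.44, 0.28, 0.37, 0.61 and 0.41, where 22.0% of all genes fell. GAR1 had -0.07 ± 0.16 there and did not pass (adjusted p = 0.761).

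Of 41 other small structured RNAs tested, 5 rose with 1035 and 36 did not pass, where 24.2% of all genes rose; among the former were RNU4-1, a U4 spliceosomal RNA (0.39 ± 0.10), and RNU2-2P, a U2 RNA (0.28 ± 0.10), and the list's median was -0.03. In the combination against doxorubicin 7 rose and 1 fell, where 21.8% and 22.0% of all genes did, with a median of 0.21. All 7 were rows named as U2 or U4 RNAs. Copies of one RNA may share reads, which was not tested for this list. RMRP and TERC, the latter the H/ACA RNA of telomerase, had -0.12 ± 0.11 and -0.13 ± 0.10 with 1035 and did not pass. The nuclear RNA MALAT1 took 0.249% and 0.250% of reads with DMSO, 0.665% and 0.544% with 1035, 0.341% and 0.414% with doxorubicin and 0.685% and 0.803% with the combination. Its part in the members' values was not tested. In these bulk samples a smaller share of cells with an RNA and less of it per cell cannot be told apart, and all levels are relative to the other RNAs of a library.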

How the data were processed

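RNA of 8 libraries, 2 for each of 4 treatments, was sequenced as single reads of 50 bases after ribosomal RNA depletion, per the labels' protocols. Alignment to hg19 with Novoalign 2.08.01 and comparison with DESeq2 1.4.5 are named in the submitters' processing notes; no source used here names the counting tool, its strand setting or its annotation. The 4 deposited tables each compare 2 treatments and hold raw counts per gene, which were joined by gene identifier. The deposited FPKM values, made by the authors, served to recover each row's length. The deposited log2 fold changes and the authors' p-values entered no test. In the authors' deposited table of 1035 against DMSO, 22 of 228 members had an adjusted p under 0.05 (19 lower, 3 higher), and in that of the combination against doxorubicin 4 of 235.

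Counts were fitted with edgeR 4.0.16 (R 4.3.3; TMM scaling, filterByExpr, robust quasi-likelihood test on 4 group means, two-sided), with Benjamini-Hochberg adjustment over 16320 genes at 0.05. SE is the absolute log2 fold change divided by the square root of F. Levels per length are CPM per kilobase. With 2 libraries a group, p-values rest on the spread between libraries pooled over the 4 groups (4 residual degrees of freedom). They rest as well on the spread of other genes (median of 35.6 prior degrees of freedom), and not on the 2 groups compared alone. Precision depends on the 11760542 to 18144670 counted reads per library and on the spread between libraries. RMRP, at a mean count of 38860, still had an SE of 0.11 for 1035 against DMSO. The fit was tested on simulated data. Sequences and host genes were read from GENCODE v29 on GRCh38 by gene identifier (234 of 241 matched), and no hg19 coordinate is printed. Alternatives were DESeq2 1.42.0, other scalings, filters and designs, and leaving out each library.

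Named were the 5 SNORA and 5 SNORD rows highest per length, every SCARNA row, up to 8 called members by p in each direction for the 2 comparisons of 1035 and up to 5 for the others, RNAs with roles in ribosomal RNA cleavage, and called genes of the protein and small RNA lists; other members were named after their values were seen (among them SNORA4, SNORA18, SNORA80B, SNORD12, SNORD12C, SNORD45B and SNORD83B). The members and lists were chosen with earlier results of these data known.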

Additional observations from a re-analysis of the deposited data

How the results depend on the processing

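Scaling by DESeq2 size factors or by TMM factors computed without the members, and the fit without a filter on low counts, kept every count of members called within 1.5 times. DESeq2's Wald test called fewer: 2 higher and 12 lower for 1035 against DMSO, 1 lower for doxorubicin against DMSO, 3 higher and 5 lower for the combination against doxorubicin, 1 higher and 7 lower for the combination against DMSO, and 4 in both comparisons of 1035. With genes of a mean count of at least 50, which tests fewer members, 18 were lower for 1035 against DMSO and 1 was higher for doxorubicin against DMSO. The likelihood ratio test called 7 higher for the combination against DMSO. With only the 2 groups compared, 10 were higher and 37 lower there, and 1 was lower for doxorubicin against DMSO. Rows of up to 500 nt, a setting chosen after seeing the data, gave 2 higher for 1035 against DMSO and 1 lower for doxorubicin against DMSO. At an adjusted p under 0.01, 5 were called in both comparisons of 1035.

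Leaving out each library in turn gave, for 1035 against DMSO, 1 to 6 higher and 18 to 39 lower; for doxorubicin against DMSO, 0 to 2 higher and 1 to 12 lower; for the combination against doxorubicin, 2 to 15 higher and 7 to 23 lower; for the combination against DMSO, 1 to 7 higher and 9 to 30 lower; for the interaction, 0 to 5 higher and 0 to 1 lower; and 4 to 15 in both comparisons of 1035. Of the calls of named members, 268 were kept and 44 lost over these fits, and DESeq2 kept 25 and lost 13. No called log2 fold change of a member changed sign in the 2 comparisons of 1035 under these alternatives. The balance of calls did: for the combination against doxorubicin it went from 17 lower and 9 higher to 7 lower and 15 higher without the first doxorubicin library, and the SNORA and SNORD medians from -0.09 and -0.03 to 0.05 and 0.15. Where a call was lost, the cause was not tested beyond the fewer samples or genes of the setting.

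The replicate numbers did not pair the libraries: same-numbered libraries had deviations correlated at -0.0863 to 0.0941 over 11469 genes. With the replicate block, 36 were lower and 4 higher for 1035 against DMSO, 17 lower and 9 higher for the combination against doxorubicin, 2 lower for doxorubicin against DMSO, and 26 lower and 4 higher for the combination against DMSO. Most members were thinly read, with a median mean count of 28.4, and the part of depth in their calls was not tested.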
